A study of Mus musculus with 8 samples.

Results

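The miR-29 family of mouse microRNAs (miRNAs) consists of mmu-miR-29a-3p, mmu-miR-29b-3p and mmu-miR-29c-3p, written without the species prefix from here on. They are the guide strands of the Mir29a, Mir29b-1, Mir29b-2 and Mir29c hairpins. Its members were taken by name from the table of mature miRNAs, in which they were 3 of 443 distinct sequences. All 3 were listed in every library, and all 3 passed the filter on low counts that left 170 miRNAs for testing. All liver samples were of male mice of the inbred strain C57BL/6J, aged 10 to 11 weeks. In the high-fructose (HFrD) group, 4 samples followed 2 weeks on a fructose-rich diet whose calories were 10% fat, 70% carbohydrate and 20% protein. The comparison group of 4 samples followed the same time on chow, the labels' normal diet. The labels call the HFrD group an HFrD-induced model of non-alcoholic fatty liver disease (NAFLD) and the comparison group a chow diet model. The sources used here do not record what the chow contained, so differences other than fructose are possible. Replicate numbers are given, but no label says that each number is a separate mouse. A p-value here therefore sets the difference between diets against the spread of these samples only, which may not be that of separate mice.

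A miRNA is cut from a hairpin precursor, is loaded into an Argonaute protein and guides it to messenger RNAs, mainly by pairing of its seed, a short stretch near its 5′ end, with the 3′ untranslated region (UTR). The miR-29 family is best known for repressing genes of the extracellular matrix, including collagens, and DNA methyltransferases. In mouse liver its members are found in hepatocytes and in stellate cells, and in stellate cells they are known to decline when the cells become fibrogenic. Because whole liver was sequenced, fewer cells of a type and less of a miRNA per cell cannot be told apart.

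The mature sequences are shown because the members differ only outside the seed, which limits how well reads can be assigned to them. The deposited sequences of all 3 members matched the RefSeq annotation of GRCm38.p6. They are written 5′ to 3′, with the seed, bases 2 to 8, in capitals.
miR-29a-3p: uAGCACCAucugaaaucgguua
miR-29b-3p: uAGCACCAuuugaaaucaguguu
miR-29c-3p: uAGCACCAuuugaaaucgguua
Counting from the 5′ end, miR-29a-3p and miR-29c-3p differ by the single substitution C10U, with miR-29a-3p given first. Between miR-29b-3p and miR-29c-3p, the substitutions are A18G, G21U and U22A, and miR-29b-3p is 1 base longer, with 23 against 22 bases. Between miR-29a-3p and miR-29b-3p they are C10U, G18A, U21G and A22U. The seed was carried by these 3 entries of the table and by 0 others. No other entry lay within 3 substitutions of a member. A single sequencing error can turn one of miR-29a-3p and miR-29c-3p into the other, and the sources used here do not say how the authors assigned such reads. The split between this pair is therefore uncertain.

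The genes lie in 2 clusters (GRCm38). Mir29a lies at chr6:31062660-31062747 and Mir29b-1 at chr6:31063023-31063093, both on the minus strand with 275 bases between them. Mir29b-2 lies at chr1:195037040-195037120 and Mir29c at chr1:195037547-195037634, both on the plus strand with 426 bases between them. In the GENCODE M21 annotation, Mir29b-2 and Mir29c are inside exon 3 of the non-coding transcript A330023F24Rik-204, and opposite a UTR of the complement regulator gene Cd46 on the other strand. Mir29b-1 overlaps exon 1 of the long non-coding RNA Gm27019 by 2 bases, and Mir29a overlaps no other annotated gene. The RefSeq hairpins of the miR-29b pair (GRCm38.p6) are shown because both hold the same mature sequence, given in capitals.
Mir29b-1: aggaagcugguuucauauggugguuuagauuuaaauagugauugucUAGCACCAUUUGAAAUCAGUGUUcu
Mir29b-2: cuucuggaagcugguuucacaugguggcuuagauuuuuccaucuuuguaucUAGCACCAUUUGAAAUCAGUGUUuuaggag
The table held miR-29b-3p once for each of these precursors with the same counts, so its 2 loci cannot be separated. The members' values therefore give no count for either cluster as a whole.

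The seed's complement was also looked for in collagen genes, the targets for which the family is best known. The motif TGGTGCT pairs with the 7 seed bases, and TGGTGCTA, which contains it, adds an A opposite the first base of the miRNA. The sense strand of the longest annotated 3′ UTR of each protein-coding gene was searched for both. The shorter motif was present in 25 of 44 collagen genes, 56.8%, against 13.1% of all 21037 genes with a 3′ UTR. The longer motif was present in 16 collagen genes, 36.4%, against 2.86% of all genes. Median UTR length was 1032.5 bases in the collagen genes and 960 bases in all genes. Among the type IV collagens of basement membranes, Col4a1 and Col4a6 each had 1 match to the longer motif and Col4a5 had 3. Col4a2, Col4a3 and Col4a4 had 0 matches to the longer motif, and 2, 4 and 2 to the shorter one. Among fibrillar collagens, Col5a1 had 4 matches to the shorter motif, of which 2 extended to the longer one. Col1a2 had 0 matches in this window. Matches in the main fibrillar collagens of scar tissue are shown with the motif in capitals, Col1a1 at chr11:94952525-94952546 and Col3a1 at chr1:45348969-45348990, both on the plus strand of GRCm38.
Col1a1: gggaaggaatttcTGGTGCTAt
Col3a1: caaaatgtctcaaTGGTGCTAt
These matches describe the annotated sequence, and no messenger RNA was analysed here.

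Library totals ran from 1120035 to 1638036 counts in HFrD and from 1223473 to 1339840 counts in chow, so that 1 count was worth 0.610 to 0.893 CPM, the unit that scales a library's counts to a common total. Below, CPM are scaled by the trimmed mean of M-values (TMM), which corrects library totals for composition, unless library totals are named. The mean TMM factor was 1.05 in HFrD and 0.959 in chow, which on average lowers HFrD values and raises chow values. HFrD replicate 3 (0.972) and chow replicate 1 (1.02) went the other way. The diets were compared by edgeR's quasi-likelihood test, with Benjamini-Hochberg adjustment over the 170 miRNAs tested and a threshold of 0.05. With 4 samples per diet, the exact two-sided permutation test of a single value cannot go below p = 0.0286.

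The liver held the family mainly as miR-29a-3p, and none of the 3 members passed the test between diets. miR-29a-3p averaged 730 CPM in HFrD and 695 CPM in chow. miR-29b-3p was lower in HFrD on average, at 13.4 CPM against 18.7 CPM in chow, and miR-29c-3p stood at 8.11 CPM in HFrD and 7.76 CPM in chow. Of all miRNAs tested, 10 of 170 passed (5.88%), 4 higher (2.35%) and 6 lower (3.53%) in HFrD, and 40 (23.5%) had an unadjusted p under 0.05. Without TMM, on library totals alone, 23 passed, 17 higher and 6 lower, and the median log2 fold change over the whole set was 0.13, against 0.01 with TMM. The values of the 2 diets did not overlap for 24 miRNAs (14.1%), and for 0 of the 3 members. Ordered by p among the 170, miR-29b-3p was at place 45, miR-29a-3p at 138 and miR-29c-3p at 162.

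miR-29a-3p, transcribed from the chromosome 6 cluster, had counts of 837, 978, 1341 and 933 in HFrD replicates 1 to 4, against 1002, 859, 742 and 758 in chow replicates 1 to 4. In CPM these were 536, 838, 843 and 705 in HFrD, against 798, 729, 577 and 674 in chow. HFrD replicates 2 and 3 lay above every chow sample and HFrD replicate 1 lay below every chow sample, so the diets overlapped. The mean was 730 ± 144 CPM in HFrD and 695 ± 93.3 CPM in chow (SD, n = 4 each). The log2 fold change of HFrD over chow was 0.07 (SE 0.13, 95% interval −0.21 to 0.35), with an adjusted p of 0.742 in edgeR. On the linear scale the interval ran from 0.863-fold to 1.28-fold, so changes within it are not resolved by these samples. The exact permutation test of the CPM gave p = 0.686. The coefficient of variation among samples was 19.8% in HFrD and 13.4% in chow, against 3.13% in HFrD and 3.45% in chow from counting alone. The spread of miR-29a-3p was therefore larger than counting error in both diets. Its estimate changed sign without HFrD replicate 2, HFrD replicate 3 or chow replicate 3, with a range of −0.014 to 0.21 over the 8 fits that each left out 1 sample.

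miR-29b-3p, the member made from both clusters, had counts of 16, 15, 23 and 21 in HFrD, against 25, 16, 22 and 27 in chow. The CPM were 10.2, 12.8, 14.5 and 15.9 in HFrD, against 19.9, 13.6, 17.1 and 24.0 in chow. HFrD replicates 1 and 2 lay below every chow sample, the other HFrD samples lay above chow replicate 2 only, and 4 of 4 HFrD samples lay below the chow mean. The mean was 13.4 ± 2.41 CPM in HFrD and 18.7 ± 4.42 CPM in chow (SD, n = 4 each). The log2 fold change was −0.48 (SE 0.25, 95% interval −1.02 to 0.05), with an unadjusted p of 0.0755 and an adjusted p of 0.281 in edgeR. The linear interval was 0.495-fold to 1.04-fold, and the exact permutation test of the CPM gave p = 0.0857. The difference was smaller on library totals, with 13.9 ± 2.04 CPM in HFrD, 17.8 ± 3.83 CPM in chow and an exact permutation p of 0.2 (SD, n = 4 each). Here the coefficient of variation was 18.05% in HFrD and 23.7% in chow, close to the 23.1% in HFrD and 21.1% in chow that counting alone gives. At this depth the spread of miR-29b-3p among samples was not separable from counting error.

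miR-29c-3p, from the chromosome 1 cluster, was the rarest member, with counts of 12, 12, 17 and 5 in HFrD, against 12, 7, 12 and 7 in chow. In CPM these were 7.68, 10.3, 10.7 and 3.78 in HFrD, against 9.55, 5.94, 9.33 and 6.23 in chow. HFrD held both the highest values and the lowest, in replicate 4, and the diets overlapped. The 5 counts of that library have an exact Poisson 95% interval of 1.62 to 11.7 counts, which covers counting error only. The mean was 8.11 ± 3.18 CPM in HFrD and 7.76 ± 1.94 CPM in chow (SD, n = 4 each). The log2 fold change was 0.05 (SE 0.34, 95% interval −0.66 to 0.77), with an adjusted p of 0.916 in edgeR and an exact permutation p of 0.886. The linear interval, 0.634-fold to 1.70-fold, was the widest of the 3 members. The sign changed without HFrD replicate 2, HFrD replicate 3, chow replicate 2 or chow replicate 4, over a range of −0.13 to 0.28.

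**Figure D1:**
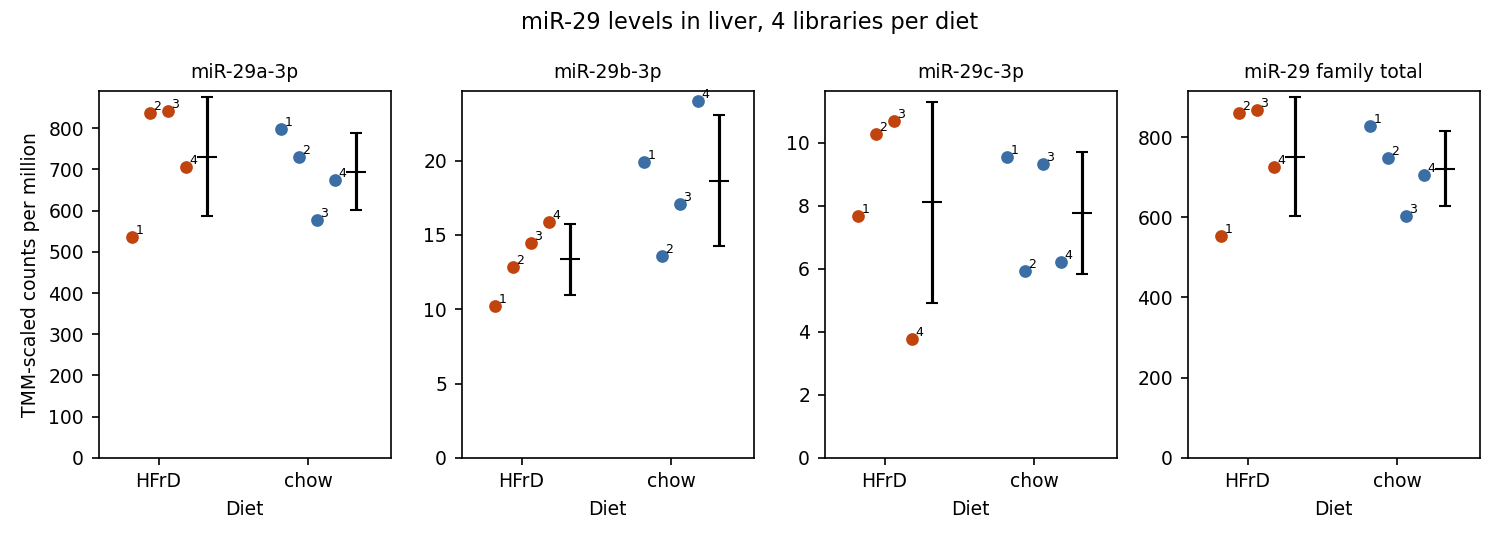
TMM-scaled CPM of miR-29a-3p, miR-29b-3p, miR-29c-3p and their total, 1 point per liver sample, with HFrD left and chow right, each vertical axis starting at 0. Lines are means with SD (n = 4 each): miR-29a-3p averages 730 CPM in HFrD and 695 CPM in chow and miR-29b-3p 13.4 CPM in HFrD and 18.7 CPM in chow, and in every panel the diets overlap.

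The 3 members summed to 554, 861, 868 and 724 CPM in HFrD, against 827, 749, 603 and 705 CPM in chow. HFrD replicates 2 and 3 were above all chow samples and HFrD replicate 1 below all of them. The total averaged 752 ± 147 CPM in HFrD and 721 ± 93.4 CPM in chow (SD, n = 4 each), a ratio of 1.04 of HFrD over chow, less than the spread in either diet. On library totals it was 779 ± 119 CPM in HFrD and 694 ± 116 CPM in chow (SD, n = 4 each), a ratio of 1.12. In counts the family had 4210 in HFrD and 3489 in chow, together 0.0735% of all miRNA counts. Because of its composition, the total follows miR-29a-3p.

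Over all 8 libraries, miR-29a-3p gave 96.8% of the family's counts, miR-29b-3p 2.14% and miR-29c-3p 1.09%. The share of miR-29a-3p was 97.1% ± 0.254 in HFrD and 96.3% ± 0.822 in chow (SD, n = 4 each). The share of miR-29b-3p was 1.85%, 1.49%, 1.67% and 2.19% in HFrD, against 2.41%, 1.81%, 2.84% and 3.41% in chow. HFrD replicates 2 and 3 had lower shares than every chow sample and the remaining HFrD samples lay above chow replicate 2, so the diets overlapped. The mean share of miR-29b-3p was 1.80% ± 0.298 in HFrD and 2.62% ± 0.674 in chow (SD, n = 4 each), a difference of −0.817 percentage points. In chow replicate 4, where it was highest, the 27 counts give an exact Clopper-Pearson 95% interval of 2.26% to 4.92%. In HFrD replicate 2, where it was lowest, 15 counts give 0.838% to 2.45%. The intervals overlap, but overlap of separate intervals does not test a difference, and these libraries were picked as the extremes. The share of miR-29c-3p was 1.08% ± 0.384 in HFrD and 1.09% ± 0.338 in chow (SD, n = 4 each). Since all shares add up to the same whole and miR-29a-3p dominates it, they are no independent measure of the members' levels, and they were not tested.

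**Figure D2:**
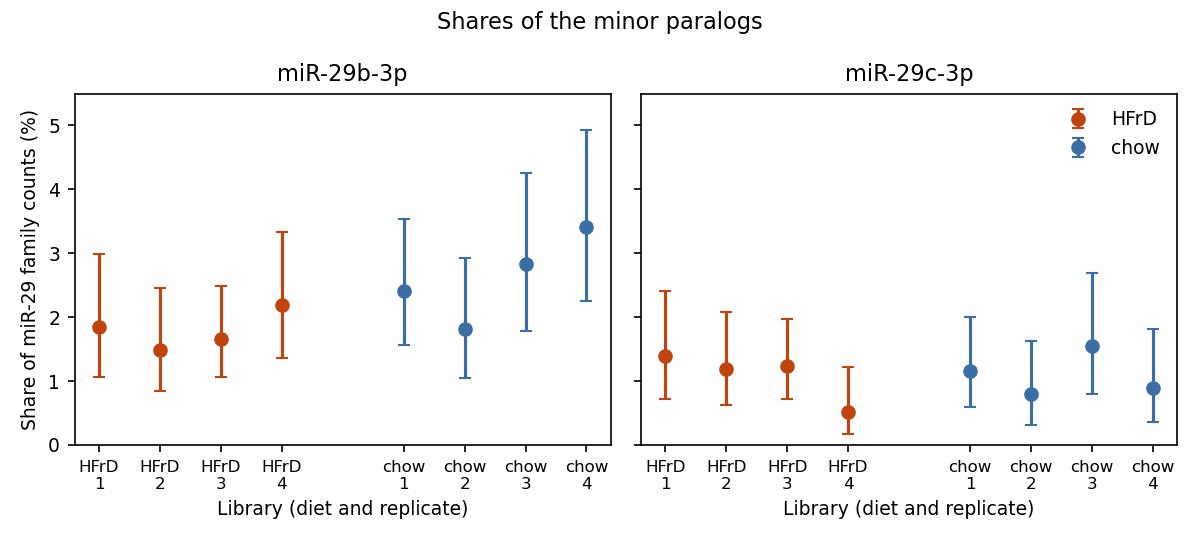
Share of the family's counts held by miR-29b-3p and by miR-29c-3p in each liver sample, in percent, with HFrD left and chow right and exact 95% binomial intervals as bars. The miR-29b-3p share lies between 1.49% and 2.19% in HFrD and between 1.81% and 3.41% in chow, and miR-29c-3p stays lower than miR-29b-3p in each of the 8 samples.

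Set against each other within a library, the miR-29a-3p to miR-29b-3p ratio was 52.3, 65.2, 58.3 and 44.4 in HFrD, against 40.1, 53.7, 33.7 and 28.1 in chow. It averaged 55.1 in HFrD and 38.9 in chow, with overlap between the diets. The ratio needs no scaling between libraries, because both counts come from the same one. The order of the members was the same in 8 of 8 libraries, with miR-29b-3p above miR-29c-3p, by 4.2 times in HFrD replicate 4 and by 1.25 times in HFrD replicate 2. If each read covers the whole miRNA, these levels are per molecule without correction for length. No small-RNA selection is described in the sources used here, and the bias of library preparation towards some sequences is not known.

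**Figure D3:**
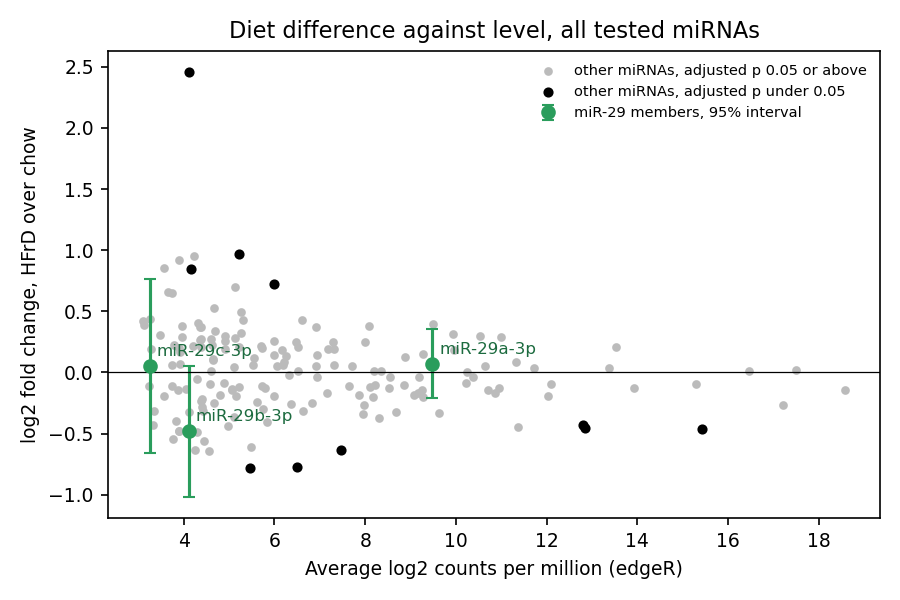
Log2 fold change of HFrD over chow (vertical axis) against mean abundance in log2 CPM (horizontal axis) for the 170 tested miRNAs, with the miR-29 members marked with their 95% intervals. The intervals of all 3 members include 0, and they widen from miR-29a-3p (SE 0.13) to miR-29b-3p (SE 0.25) and miR-29c-3p (SE 0.34) as abundance falls.

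Among all 443 sequences, miR-29a-3p was at rank 30 by mean level, with 712 ± 114 CPM (SD over 8 samples). let-7d-5p at rank 29, a member of the let-7 family, had 716 ± 142 CPM. The order of this pair was not the same in both diets. let-7d-5p averaged 814 ± 73.6 CPM in HFrD and 619 ± 128 CPM in chow (SD, n = 4 each), above the mean of miR-29a-3p in HFrD and below it in chow, by less than the SD of miR-29a-3p in either diet. miR-185-5p at rank 31 had 621 ± 90.7 CPM and exceeded miR-29a-3p in 1 of the 8 libraries. miR-29b-3p was at rank 141 with 16.0 ± 4.34 CPM, between miR-671-3p with 16.1 ± 5.33 CPM and miR-871-3p with 15.95 ± 2.32 CPM. miR-29c-3p was at rank 168 with 7.93 ± 2.44 CPM, between miR-300-3p with 7.96 ± 3.93 CPM and miR-195a-3p with 7.76 ± 2.08 CPM. Within each diet, miR-871-3p differed from miR-29b-3p, and miR-300-3p and miR-195a-3p from miR-29c-3p, by less than the member's SD. The order of miR-671-3p and miR-29b-3p turned between diets, by more than the SD of miR-29b-3p in each. miR-671-3p averaged 20.8 ± 2.11 CPM in HFrD and 11.5 ± 2.06 CPM in chow (SD, n = 4 each; log2 fold change 0.85, adjusted p = 0.0424, edgeR). The call for miR-671-3p was lost without HFrD replicate 2, 3 or 4, and without chow replicate 2, 3 or 4 (adjusted p between 0.0512 and 0.155, edgeR). It was also lost with upper quartile factors (adjusted p = 0.0769, edgeR) and with DESeq2 (adjusted p = 0.0692). When sequences with the same bases 2 to 8 were summed, the miR-29 seed was at rank 20 of 366 seeds, with 736 ± 115 CPM. The seed led by miR-24-3p was just above it, with 779 ± 93.9 CPM, and the seed led by miR-10a-5p just below, with 681 ± 60.4 CPM.

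The opposite, 5p arms of the hairpins are normally degraded. RefSeq annotates 4 of them, and 1, miR-29c-5p, had an entry in the table.
miR-29c-5p: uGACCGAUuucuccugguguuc
Its seed, in capitals, differs from that of the guide strands. It was listed with 2 counts in HFrD replicate 3 and 2 counts in chow replicate 3, the smallest value the table holds, and it did not enter the test. The same libraries had 17 counts of miR-29c-3p in HFrD replicate 3 and 12 in chow replicate 3. The other libraries had a blank for it, which can stand for a value below 2, so no share of the hairpin's counts is given over all samples.

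The miRNAs whose levels across the 8 samples were most like those of the members were sought among the other 167 tested miRNAs, by Pearson's r of log2(CPM + 0.5). Nearest to miR-29a-3p were miR-103-3p (r = 0.85), the sequence shared by miR-199a-3p and miR-199b-3p (0.85) and miR-106b-5p (0.85). Nearest to miR-29b-3p were miR-24-2-5p (r = 0.89), miR-122-3p (0.83) and miR-10a-5p (0.83). miR-122-3p, the passenger strand of the liver-specific Mir122 hairpin, fell to 139 ± 5.27 CPM in HFrD, against 216 ± 32.5 CPM in chow (SD, n = 4 each; adjusted p = 0.0110, edgeR). With upper quartile factors its adjusted p was 0.0642 in edgeR. Nearest to miR-29c-3p were miR-193a-5p (r = 0.76), miR-676-5p (0.69) and miR-423-3p (0.59). The 3 lists shared no miRNA. These values describe 8 samples that share libraries and scaling and include both diets, and they are the highest of many.

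Of 34 other miRNAs described in fibrosis of the liver or of other tissues, 33 were in the table and 26 were tested. In HFrD 0 of these were higher, 2 were lower and 24 did not pass, a share of 7.69% beside 5.88% of all tested miRNAs. The list's median log2 fold change was −0.04, beside 0.01 for the whole set tested. miR-27b-3p fell to 6225 ± 127 CPM in HFrD, against 8518 ± 1286 CPM in chow (SD, n = 4 each), a log2 difference of −0.45 (SE 0.099, adjusted p = 0.0123, edgeR). This call was lost without chow replicate 2 (adjusted p = 0.0713). miR-30a-5p stood at 37087 ± 3427 CPM in HFrD, against 51171 ± 12917 CPM in chow (SD, n = 4 each), and its diets overlapped. Its log2 difference was −0.46 (SE 0.13) and passed the test (adjusted p = 0.0424, edgeR). That call was lost without HFrD replicate 1, 2 or 4, or without chow replicate 2 or 4, with adjusted p between 0.0521 and 0.127 in edgeR. With upper quartile factors in place of TMM, adjusted p was 0.154 for miR-27b-3p and 0.252 for miR-30a-5p in edgeR. The most abundant miRNAs of the list did not pass. miR-148a-3p, abundant in hepatocytes, averaged 370392 ± 30770 CPM in HFrD and 408951 ± 31718 CPM in chow (SD, n = 4 each; log2 fold change −0.14, adjusted p = 0.396, edgeR). The fibrosis-associated miR-21a-5p had a log2 fold change of 0.02 (adjusted p = 0.927, edgeR), and miR-122-5p, the liver-specific miRNA of hepatocytes, had −0.26 (adjusted p = 0.0987, edgeR).

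Markers of the cells a liver sample can hold were summed beside these results. Hepatocyte miRNAs, 5 of 5 listed in every library, summed to 581254 to 627727 CPM in HFrD and 615774 to 704210 CPM in chow. The defining markers of the labelled tissue were therefore present, and miR-148a-3p made up 61.5% of this sum. Stellate cell and fibroblast miRNAs, 6 of 7 in the table, summed to 4567 to 5958 CPM in HFrD and 5397 to 5703 CPM in chow. Of these, 5 were in every library, and miR-143-3p made up 81.1% of the sum. Endothelial miRNAs, 3 of 3, summed to 6003 to 6990 CPM in HFrD and 7559 to 10202 CPM in chow, without overlap, and 94.8% of this sum was miR-126a-3p. miR-126a-3p alone of these passed the test, with 6113 ± 371 CPM in HFrD and 8234 ± 1114 CPM in chow (SD, n = 4 each; log2 fold change −0.43, adjusted p = 0.0123, edgeR). Its call was lost without HFrD replicate 4 (adjusted p = 0.0643, edgeR), without chow replicate 2 (adjusted p = 0.0844, edgeR) and with upper quartile factors (adjusted p = 0.154, edgeR). The other endothelial miRNAs overlapped between diets, with log2 fold changes of −0.12 for miR-126a-5p (adjusted p = 0.504, edgeR) and −0.04 for miR-139-5p (adjusted p = 0.823, edgeR). Biliary miRNAs, 4 of 5, summed to 450 to 640 CPM in HFrD and 515 to 743 CPM in chow. Blood and muscle miRNAs overlapped between diets. The 5 myeloid and lymphoid ones, 3 of them in every library, summed to 23.1 to 29.5 CPM in HFrD and 14.0 to 37.4 CPM in chow. The erythroid miRNAs summed to 83.9 to 164 CPM in HFrD and 92.4 to 111 CPM in chow, and the muscle ones, 2 of 3, to 550 to 633 CPM in HFrD and 541 to 736 CPM in chow. The part of these marker levels in the values of the miR-29 members was not tested.

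**Figure D4:**
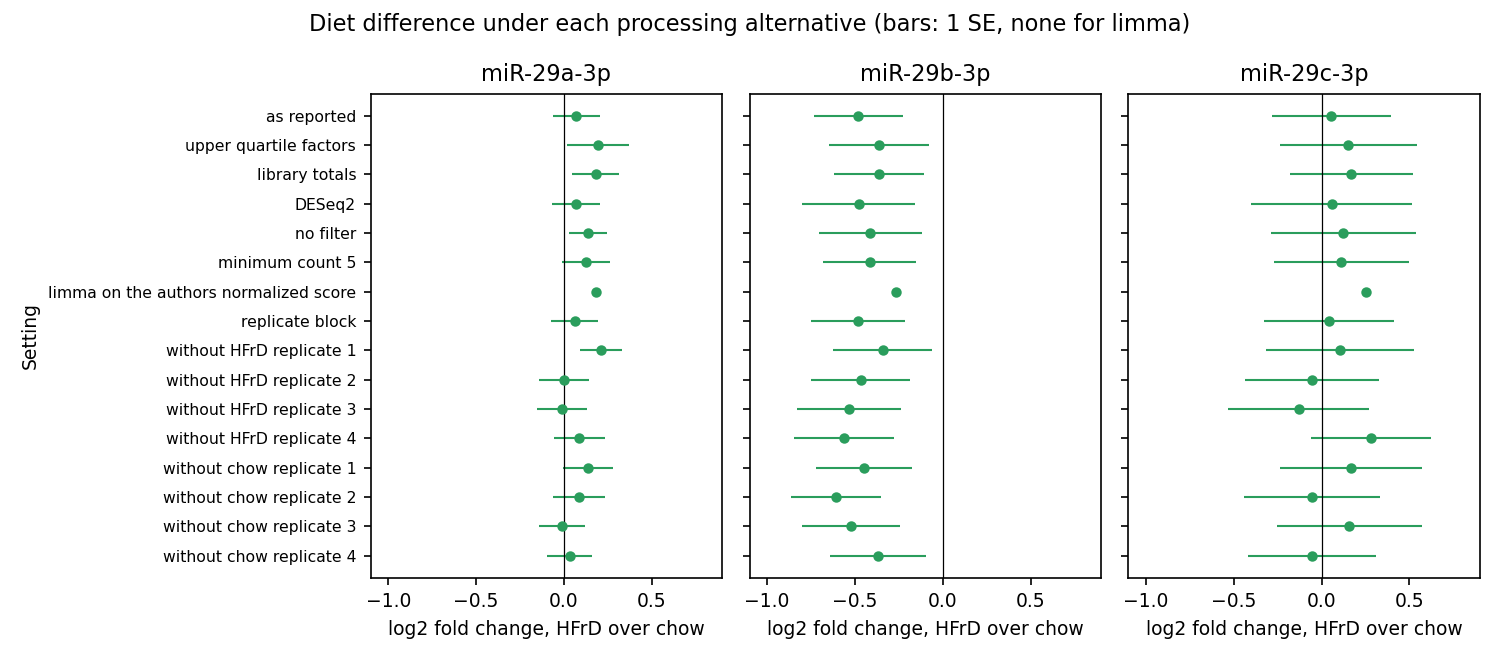
Log2 fold change of HFrD over chow (horizontal axis) of the 3 members under the main settings and each alternative setting, 1 row per setting. miR-29b-3p lies below 0 in all 15 alternatives, between −0.61 and −0.27, while miR-29a-3p (−0.014 to 0.21) and miR-29c-3p (−0.13 to 0.28) fall on both sides of 0.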

How the data were processed

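Total RNA was extracted from liver with TRIzol, per the labels' protocols. These go on to ribosomal RNA depletion and a stranded total RNA library; no small-RNA selection is described in the sources used here. Per the submitters' processing notes, cutadapt 1.9.2, Novoalign 3.02.12 and build mm10 were used. The authors deposited raw counts per mature miRNA, and a normalized score that is each count divided by a constant of its library and rounded. Entries (484) were merged by mature sequence into 443, and blank cells (35.3%) were read as 0. The smallest listed value was 2, so a blank can stand for a value below 2 and need not mean 0. No upper limit is taken from a blank. Library totals ranged from 1120035 to 1638036 counts, and counting intervals cover counting error only, since reads lack molecular identifiers.

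The counts were tested with edgeR 4.0.16 (R 4.3.3; TMM, filterByExpr minimum count 10, diet as the only term, two-sided quasi-likelihood test), after tests on simulated data. Single values had an exact two-sided permutation test over 70 assignments. Loci and UTRs came from GENCODE M21, and mature and hairpin sequences from RefSeq. Alternatives were upper quartile factors, library totals, DESeq2 1.42.0, other filters, limma 3.58.1 on log2(score + 1), the replicate block and leaving out each sample. By rule, named miRNAs were the members, their listed 5p arms, the 3 most alike for each, their neighbours in the order of mean level, and, of the fibrosis list, those that passed and the 3 most abundant. The endothelial miRNAs and the leaders of neighbouring seeds were named after their values were seen. The members and lists were chosen with earlier results of these data known.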

Additional observations from a re-analysis of the deposited data

How the results depend on the processing

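The count of miRNAs passing the test, 10 with the main settings, was 1 with upper quartile factors, 23 with library totals, 22 without the filter and 20 with limma on the deposited score; the cause was not tested. It ran from 1 (without chow replicate 2) to 17 (without chow replicate 3) when single samples were left out, with 6 without HFrD replicate 4, and it was 11 with DESeq2. None of the 3 members passed in any of these 15 alternatives. miR-29b-3p stayed below 0 in all 15, at −0.61 without chow replicate 2 (adjusted p = 0.253, edgeR) and at −0.27 with limma, with adjusted p between 0.253 and 0.575. On library totals it was −0.36. Across the libraries, the log2 CPM of miR-29b-3p had r = −0.75 with the log2 TMM factor by which CPM are divided. For miR-29a-3p this r was −0.20 and for miR-29c-3p 0.03. The mean factor also differed between diets, and the part of scaling was not tested. The log2 fold change of miR-29a-3p ran from −0.014 to 0.21 (adjusted p 0.308 to 0.994) and that of miR-29c-3p from −0.13 to 0.28 (adjusted p 0.634 to 0.957) when single samples were left out, and both were above 0 under every other setting. The log2 ratio of the family total ran from −0.02 to 0.18, and the difference in the miR-29b-3p share from −1.08 to −0.552 percentage points.

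Samples with the same replicate number in the labels showed little shared deviation from their diet means (correlations of 0.15, −0.10, 0.05 and 0.01 for numbers 1 to 4). Only HFrD replicate 1 was most like the chow sample of its own number. With 4 samples per diet, these values cannot show whether the numbers pair samples, and no label says that they do. The deposited column headers carry numbers that differ between the diets for replicate 2 (Con-3 in chow, M2 in HFrD) and replicate 3 (Con-6 in chow, M5 in HFrD). A replicate block gave 15 passing miRNAs, and log2 fold changes of 0.06 for miR-29a-3p (adjusted p = 0.795), −0.48 for miR-29b-3p (adjusted p = 0.311) and 0.04 for miR-29c-3p (adjusted p = 0.943) in edgeR. With 5 to 27 counts per library, miR-29b-3p and miR-29c-3p are limited by depth.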

Other observations

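The deposited normalized score is rounded to whole numbers, which leaves few levels for the rare members. miR-29b-3p had scores of 3, 3, 4 and 4 in HFrD and 5, 3, 4 and 6 in chow. miR-29c-3p had scores of 2, 3, 3 and 1 in HFrD and 3, 1, 2 and 1 in chow. miR-29a-3p kept more of its range, with 158, 232, 217 and 193 in HFrD and 222, 181, 144 and 160 in chow.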
